A study of Mus musculus with 31 samples.

Results

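Ribosomal protein genes encode the proteins of the cytoplasmic ribosome, the particle that translates mRNA into protein. The genes described here were the protein-coding genes on the autosomes and the X chromosome whose symbol is Rpl or Rps followed by a digit, or is Rplp0, Rplp1, Rplp2 or Rpsa. Rps6k kinase genes, Gm-named copies and pseudogenes were left out. This rule, which uses no measured value, took 89 of 21631 genes in the RefSeq annotation of the mouse assembly mm10. They comprised 43 genes of the large subunit, 31 of the small subunit, the 3 genes of the acidic stalk (Rplp0, Rplp1 and Rplp2), 11 paralogs or copies such as Rpl3l and Rps27l, and Rps19bp1, which carries the symbol but is a regulator that binds RPS19.

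Trimethylation of histone H3 at lysine 4 (H3K4me3) is found at the start of active genes, and monomethylation (H3K4me1) at enhancers and the flanks of promoters. Ribosomal protein genes are transcribed in nearly all cells, from short promoters rich in CpG. Their transcripts begin with a C in a run of pyrimidines, the terminal oligopyrimidine tract, through which the mTOR pathway sets their translation. Kmt2d encodes a methyltransferase of H3K4. TAK-418 inhibits LSD1 (Kdm1a), which removes methyl groups from H3K4.

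Both marks were mapped by chromatin immunoprecipitation and sequencing (ChIP-seq) in the hippocampus of C57BL6 mice aged 30 days. The groups were KMT2D+/bGeo heterozygotes given TAK-418 (1 mg/kg/day), KMT2D+/bGeo heterozygotes given vehicle, wild type mice given TAK-418 (1 mg/kg/day) and wild type mice given vehicle. Treatment was by oral gavage for 2 weeks, the vehicle being methylcellulose, and each group had 4 H3K4me3 libraries, each from another mouse. The bGeo allele, a gene-trap insertion in 1 copy of Kmt2d, is carried by all cells of the animal, and no sort of hippocampal cells is described, so that a change in cell makeup and a change of the mark within a cell cannot be told apart.

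The 16 H3K4me3 peak lists were of unequal length. The 1 library per group that carried an index of sets 1 and 2, inferred from the index sequences in the labels, had 13343 to 16750 peaks, and these lists are called long. The other 12, with an index of sets 3 and 4, had 302 to 2281 peaks and are called short. Read counts were not given, so depth is unknown. With 1 long list per group, index set and library cannot be told apart. Of 10 marker genes of hippocampal and forebrain neurons, 8 had a peak in all 4 long lists, and Neurod6 and Snap25 had one in 3. Of 12 markers of other tissues, En2 had a peak in 4 long lists, Apoa1 in 3, Ckm in 1 and the other 9 in none. Peaks on the Y chromosome occurred in 3 of 4 H3K4me3 libraries of TAK-418 heterozygotes, 2 of 4 of vehicle heterozygotes, 2 of 4 of TAK-418 wild type and 1 of 4 of vehicle wild type mice. The sex of the animals was not given in the sources used here.

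Promoter sequences were taken from RefSeq (GRCm38.p6), from 250 bases before to 50 bases after a start, and 69 of the 89 genes had one. Shown first are the promoters of Rpl5 and Rpl9, which had the lowest limma p among genes with a sequence in the comparisons described further on. Then follow Rpl27a and Rps3a1, with peaks among the highest of the family, and Rpl36a and Rps9, with peaks among the lowest. Each line runs 5′ to 3′ on the strand of the gene, from 120 bases before the start to the end of the 30 bases that follow. Capitals mark 4 motifs on either strand: CCGGAA, the core of sites bound by ETS family factors; AAGATGG, the core of the YY1 motif; GGGCGG, known as the GC box; and TATAAA, known as the TATA box. They also mark the start tract, a C within 5 bases of the start followed by at least 4 more C or T.
Rpl5: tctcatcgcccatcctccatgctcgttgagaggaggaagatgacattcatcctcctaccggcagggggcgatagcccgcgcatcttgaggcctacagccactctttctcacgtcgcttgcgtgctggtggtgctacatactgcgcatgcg
Rpl9: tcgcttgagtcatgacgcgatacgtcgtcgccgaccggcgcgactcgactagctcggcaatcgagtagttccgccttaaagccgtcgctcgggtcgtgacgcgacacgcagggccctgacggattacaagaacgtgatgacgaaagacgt
Rpl27a: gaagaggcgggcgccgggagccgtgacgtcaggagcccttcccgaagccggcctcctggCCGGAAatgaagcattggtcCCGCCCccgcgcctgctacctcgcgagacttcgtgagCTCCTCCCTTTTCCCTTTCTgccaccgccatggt
Rps3a1: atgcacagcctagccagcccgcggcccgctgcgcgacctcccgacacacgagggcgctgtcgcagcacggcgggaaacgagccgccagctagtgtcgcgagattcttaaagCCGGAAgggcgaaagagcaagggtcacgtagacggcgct
Rpl36a: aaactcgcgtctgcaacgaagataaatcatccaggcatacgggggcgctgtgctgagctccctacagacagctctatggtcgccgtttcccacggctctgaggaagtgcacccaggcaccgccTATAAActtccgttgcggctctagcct
Rps9: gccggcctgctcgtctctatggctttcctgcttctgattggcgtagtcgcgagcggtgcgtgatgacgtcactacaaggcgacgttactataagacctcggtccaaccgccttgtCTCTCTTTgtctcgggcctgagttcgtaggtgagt
These stretches lie at chr5:107900408-107900557 on the plus strand (Rpl5), chr5:65391402-65391551 on the minus strand (Rpl9), chr7:109519075-109519224 on the plus strand (Rpl27a), chr3:86142639-86142788 on the minus strand (Rps3a1), chrX:134585534-134585683 on the plus strand (Rpl36a) and chr7:3703921-3704070 on the plus strand (Rps9). Rpl27a showed the fullest set of capitals of the 6, with the ETS core, the GC box on the other strand and a start tract. Rps9 had a start tract alone, Rps3a1 had the ETS core, and Rpl36a had the TATA box letters just downstream of its annotated start. The windows of Rpl5 and Rpl9 held no capitals.

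The same letters were counted in the full 300 bases of 1 promoter per gene. A start tract was present in 31 of 69 ribosomal protein promoters (44.9%), against 18.9% of 17205 promoters of other protein-coding genes. The ETS core was present in 47.8%, against 19.2% of the others. The YY1 core was present in 14.5%, against 6.37% of the others. The GC box was present in 58.0%, against 46.8%, and the TATA box in 11.6%, against 13.4%. The median number of CG pairs was 21 in ribosomal protein promoters and 13 in the others. Other promoters differ in activity, so the count was repeated among the 11000 other genes with an H3K4me3 peak in any library. Among the 64 ribosomal protein promoters of genes with a peak, the ETS core was present in 32, the start tract in 43.8%, the GC box in 60.9% and the TATA box in 10.9%. Among the other marked genes the ETS core was present in 26.7%, the start tract in 19.8%, the GC box in 65.5% and the TATA box in 6.95%. These TATA box letters may lie anywhere in the 300 bases. Counted only in a narrow window shortly before the start, they were present in 1.56% of marked ribosomal protein promoters, against 1.45% of other marked ones. Without regard to peaks these shares were 1.45% and 3.39%. The start tract and the ETS core were thus more frequent also beside marked genes, while the number of CG pairs was close (median 21.5 against 21) and the GC box was not more frequent. These shares are descriptions without a test. They rest on annotated starts, and a start placed some bases away hides a tract.

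A gene was counted as marked when a peak lay within 2 kb of its start or its stop. In the long lists 83 of 89 ribosomal protein genes were marked in the TAK-418 heterozygote (93.3%), 82 in the vehicle heterozygote (92.1%), 82 in the TAK-418 wild type (92.1%) and 79 in the vehicle wild type mouse (88.8%). The shares of all protein-coding genes were 59.5%, 56.8%, 60.8% and 55.7% in the same libraries. With peaks of an authors' −log10 q of at least 5 the marked members numbered 74, 31, 68 and 50 in the same order (83.1%, 34.8%, 76.4% and 56.2%), against 41.9%, 17.6%, 41.9% and 31.1% of all genes. With peaks near no other gene end they numbered 52, 52, 51 and 50 (58.4%, 58.4%, 57.3% and 56.2%), against 42.3%, 40.2%, 43.4% and 39.3% of all genes. In the short lists the numbers were 0, 0 and 1 in TAK-418 heterozygotes, 0, 0 and 1 in vehicle heterozygotes, 0, 0 and 5 in TAK-418 wild type, and 0, 9 and 3 in vehicle wild type mice. The short lists thus held few ribosomal protein genes, in a share close to that of other genes in the same list (10.1% of the members against 9.03% of the others in the longest of them).

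**Figure D1:**
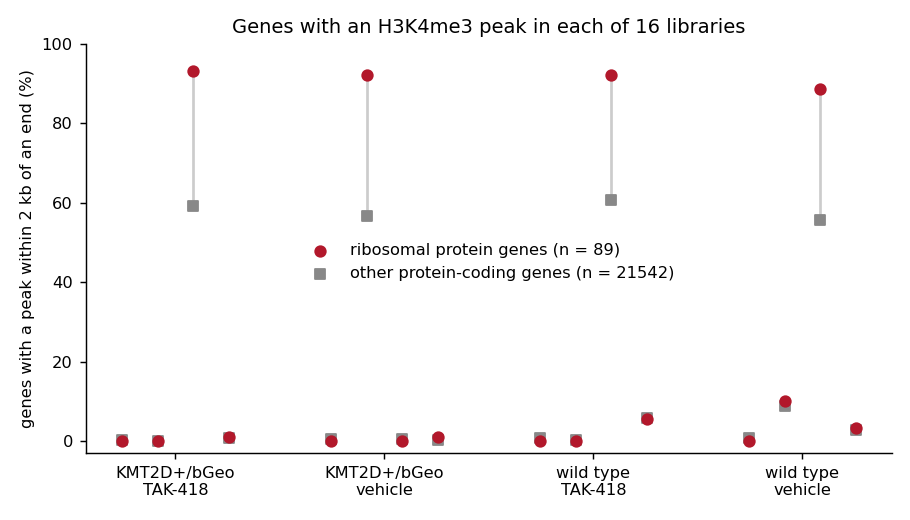
Share of genes (%, vertical axis) with an H3K4me3 peak within 2 kb of an end, for each of the 16 libraries by group; red points are the 89 ribosomal protein genes, grey squares the 21542 other protein-coding genes of the same library. In the 1 long list of each group 88.8% to 93.3% of ribosomal protein genes were marked, and in the other 12 lists 0.0% to 10.1%.

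The marked set was nearly the same in each long list. A peak in all 4 was found for 78 genes: 40 of 43 large-subunit genes, 30 of 31 small-subunit genes, all 3 stalk genes, 4 of 11 paralogs or copies and Rps19bp1. The 5 genes with a peak in none were all copies (Rpl10l, Rpl32l, Rpl37rt, Rps23rg1 and Rps27rt). Rpl10l is the intronless copy of X-linked Rpl10 that is used in male germ cells. Rpl39l, a paralog of Rpl39 best known from testis, had a peak in 1 list. Rpl3l, the paralog of Rpl3 in heart and skeletal muscle, had a peak in 3, but all 3 peaks also lay near another gene. Of the standard subunits, Rpl39 and Rpl10 had a peak in 2 long lists and Rpl3 and Rps4x in 3. Reads from near-identical copies can be assigned to either copy or to neither, and the treatment of such reads was not given in the sources used here.

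Related genes outside the symbol rule had similar shares. Of 78 mitochondrial ribosomal protein genes, which serve the separate ribosome of mitochondria, 96.2%, 91.0%, 97.4% and 93.6% were marked in the long lists of TAK-418 heterozygote, vehicle heterozygote, TAK-418 wild type and vehicle wild type. Of 73 genes for ribosome biogenesis, which process rRNA and assemble subunits, 97.3%, 83.6%, 97.3% and 97.3% were marked. Fau and Rack1, which encode ribosome components under other names, were marked in all 4.

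With all peaks counted, the median peak height was moderately above that of other genes in each long list. The median width was above that of other genes in some lists and below it in others. The height is the authors' fold enrichment of a peak over background, and folds of different lists are not on 1 scale, so each was placed as a percentile among the peaks at gene ends of its own list. The median ribosomal protein gene stood at percentile 70.25 in TAK-418 heterozygote, 59.44 in vehicle heterozygote, 56.89 in TAK-418 wild type and 59.93 in vehicle wild type. This depended on the peaks counted. Among peaks with an authors' −log10 q of at least 5 the median was 61.45 in TAK-418 heterozygote, 42.38 in vehicle heterozygote, 52.36 in TAK-418 wild type and 51.31 in vehicle wild type, so that the members stood below the middle in the vehicle heterozygote and close to it in both wild type libraries. With all peaks, the underlying median folds were 6.93 in ribosomal protein genes against 6.19 in other genes in the TAK-418 heterozygote, 4.65 against 4.36 in the vehicle heterozygote, 6.77 against 6.40 in the TAK-418 wild type and 5.91 against 5.53 in the vehicle wild type mouse. In the same order of libraries, 12 of 83, 7 of 82, 6 of 82 and 6 of 79 marked members were in the top 10 percent of peaks. In the bottom 10 percent were 3, 9, 2 and 1. By definition each of these ends holds about 10 percent of all marked genes. At the top, members were more frequent than that only in the TAK-418 heterozygote. At the bottom, they were less frequent than that in all but the vehicle heterozygote. Median widths were 1115, 897.5, 1139 and 912 bp, against 1108, 982, 1117 and 936 bp in other marked genes.

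The largest median widths over the long lists were those of Rpl7, with 2603 bp, and Rpl19, with 1968 bp. The order differed between lists: Rpl7a had the widest member peak in the TAK-418 wild type library, with 2773 bp, and Rpl19 had a peak of 941 bp in the vehicle wild type library. Rpl7 and Rpl19 lie beside another gene (Rdh10 and Cacnb1), and their widest peaks were shared with it. Where a peak covered an annotated start, it reached farther into the gene than upstream of it in 85.7%, 86.4%, 80.9% and 80.6% of ribosomal protein genes in the long lists of TAK-418 heterozygote, vehicle heterozygote, TAK-418 wild type and vehicle wild type. The shares among other genes were 76.5%, 75.6%, 77.5% and 76.2%. The median peak over a ribosomal protein start ran 375, 241, 412 and 327 bp upstream in the same order. At other genes the medians were 379, 325, 367 and 316.5 bp. The members' median was close to that of other genes in the TAK-418 heterozygote and vehicle wild type libraries. It was shorter in the vehicle heterozygote library and longer in the TAK-418 wild type library. Each group has only its long list here and no spread was taken, so a difference by genotype cannot be read from these medians. Downstream the median peak over a member's start ran 739, 634.5, 726 and 690.5 bp, against 703, 633, 710 and 619 bp at other genes.

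The family was not uniform. Among the 78 genes marked in all 4 long lists, 26 were above percentile 50 in every list and 5 below it in every list. The median SD of a gene over the 4 lists was 17.45 percentile points, and the SD between the genes' medians was 19.28, so single ranks are uncertain. Neighbours in the order do not differ beyond this spread. Neither the counts nor the SDs were taken for other genes, so such a spread is not shown to be particular to this family. The highest medians were those of Rpl27a at 91.47, Rpl5 at 89.16, Rps20 at 88.12, Rps3a1 at 86.03 and Rpl38 at 85.8. RPL5 binds 5S rRNA and, when free, restrains MDM2, and RPL38 is known for its part in the translation of Hox mRNAs in the mouse embryo. Rpl5 had folds of 10.49 in TAK-418 heterozygote, 5.852 in vehicle heterozygote, 8.963 in TAK-418 wild type and 6.664 in vehicle wild type. These lie at percentiles 99.73, 88.77, 89.56 and 77.6, high in each library. Rpl27a stood at 97.16, 90.47, 92.46 and 25.92 in the same order, so its lead did not extend to the vehicle wild type library.

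Among the lowest medians of genes marked in all 4 were Rpl36a at 8.146, Rps27a at 18.39, Rps9 at 23.7 and Rpl37 at 28.61. Rps27a encodes a fusion of ubiquitin and a small-subunit protein. Rps9 stood at percentile 84.02 in TAK-418 heterozygote, 30.59 in vehicle heterozygote, 16.8 in TAK-418 wild type and 2.82 in vehicle wild type, so its place differed widely between libraries. Rpl36a, Rpl10, Rpl39 and Rps4x are X-linked, and all 4 were low or absent. Other X-linked genes were low as well: their median percentile was 11.48, 18.57, 15.7 and 15.73, in the order of libraries used above, against 51.1, 50.92, 51.31 and 51.05 for other autosomal genes. Rpl36a stood at 74.85 in the TAK-418 heterozygote and at 2.161, 1.179 and 14.13 in the other 3 libraries.

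**Figure D2:**
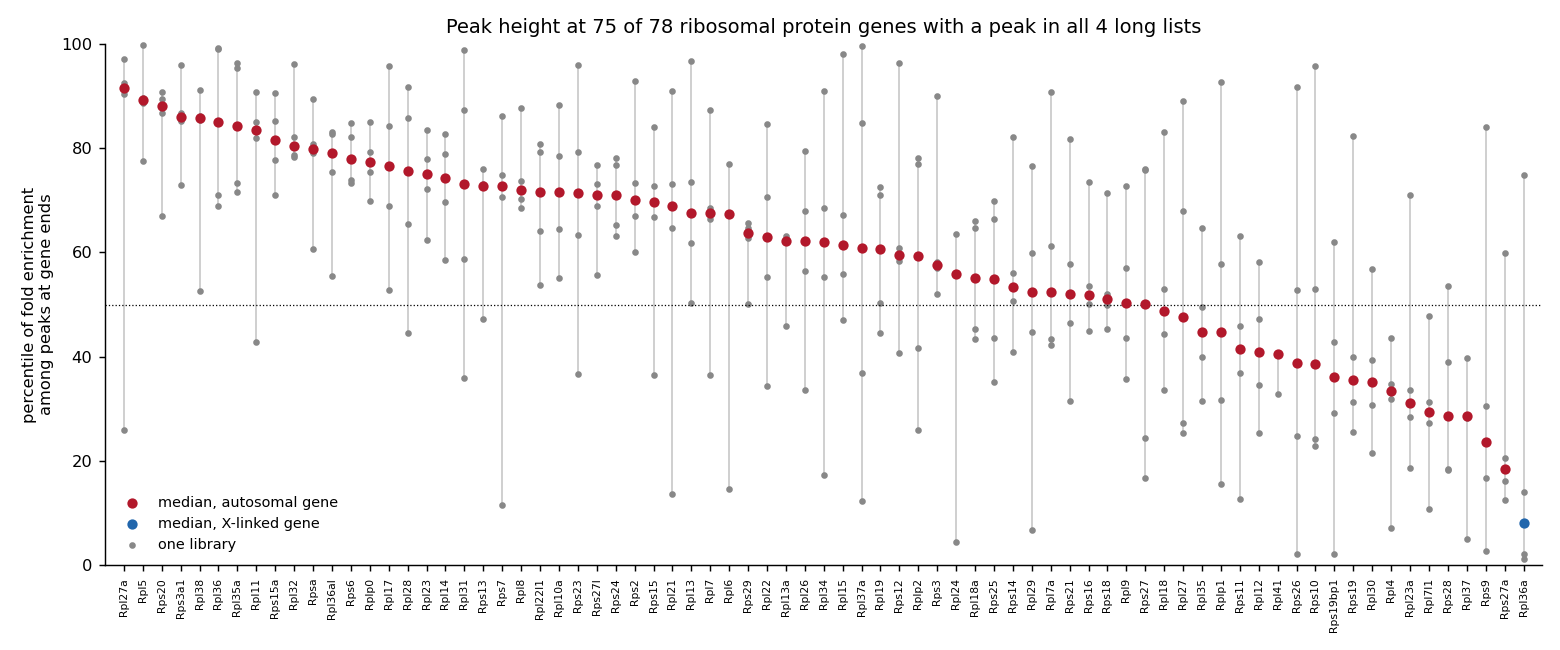
Percentile of a peak's fold enrichment among all peaks at gene ends of the same list (vertical axis) for 75 of the 78 ribosomal protein genes marked in all 4 long lists, ordered by median; grey points are the 4 libraries, lines their range, large points the median (blue for X-linked Rpl36a). Medians ran from 91.47 for Rpl27a to 8.146 for Rpl36a, and most genes varied widely between libraries.

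In the 12 short lists 17 different ribosomal protein genes had a peak (19.1%), against 15.9% of all genes. Rpl7 and Rps6 each had one in 2 short lists, a TAK-418 wild type and a vehicle wild type library, and no other member had more than 1. RPS6 is the small-subunit protein phosphorylated by S6 kinases. The vehicle wild type list with the most peaks held Rpl7, Rpl8, Rpl10a, Rpl14, Rpl15, Rpl21, Rpl36, Rps6 and Rps27l. Of these, Rpl14 had the peak with the highest fold, 5.853, at chr9:120571679-120572087. No H3K4me1 peak lay within 2 kb of a ribosomal protein gene in any of 15 libraries. These H3K4me1 lists had 88 to 456 peaks and reached 16 to 65 genes in all, so the absence was also that of nearly all other genes.

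The authors also deposited lists of differential H3K4me3 regions for 4 comparisons. Each region has a p of the authors and a whole number for each library of either group, called its score and taken as a normalized read value. The scores do not say which library each came from, and they are given in the deposited order. A member was called listed when a region lay within 2 kb of a gene end. In all, 33 of 89 members were listed at least once and 56 never. Every listed region was then tested again from its scores with limma on log2(score + 1), adjusted by Benjamini-Hochberg over the whole list. Regions entered a list by the authors' p on the same libraries. These tests and the permutation tests below are therefore not independent of that choice. No region, at a member or elsewhere, passed an adjusted p of 0.05 in any of the 4 lists (0.0% of each), so "listed as lower" in the text refers to the authors' list alone. Regions with an unadjusted p under 0.05 numbered 66 of 2015 (3.28%), 3 of 1715 (0.175%), 49 of 2780 (1.76%) and 104 of 2722 (3.82%) in the lists of vehicle heterozygote against vehicle wild type, TAK-418 heterozygote against vehicle heterozygote, TAK-418 wild type against vehicle wild type and TAK-418 heterozygote against vehicle wild type. No region at a member was among them. The 2 vehicle groups serve in more than 1 list, so the lists are not independent of each other.

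The first comparison asks what the loss of 1 Kmt2d copy does to the mark. In heterozygotes given vehicle against wild type given vehicle, 12 ribosomal protein genes were listed as lower (13.5%), against 7.04% of all protein-coding genes, and none as higher, against 0.356% (0.557% of genes with a peak). Among genes with an H3K4me3 peak in any library the shares were 14.3% of members and 11.0% of all genes, so the members' share stood little above the background of marked genes. The list as a whole ran in this direction, with 86.0% of its regions lower. That share depended on scaling. With each score divided by the median of its position over the list, 56.3% of all regions were below 0 on the log2 scale, against 88.8% with scores as deposited, and the median of all regions was -0.06, against -0.72. The median of the 13 member regions was then -0.34, and Rps3a1 alone changed sign, to 0.06. The median fold of the 13 regions at members was 0.551, against 0.602 over the 1316 lower regions at gene ends. Of the listed genes, 7 were of the large subunit (Rpl5, Rpl6, Rpl8, Rpl13, Rpl14, Rpl27 and Rpl36), 4 of the small subunit (Rps3a1, Rps15a, Rps16 and Rps27), and 1 was a paralog, Rps27l, a target of p53. Mitochondrial ribosomal protein genes were listed as lower in 14.1% and ribosome biogenesis genes in 13.7%.

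Rpl36, a large-subunit gene at chr17:56610094-56614246, was the only member whose groups did not overlap. In the region over its annotated lower end, chr17:56610001-56610300, the scores were 26, 21, 18 and 20 in vehicle heterozygotes, against 49, 61, 47 and 72 in vehicle wild type mice. All 4 heterozygote scores were below all 4 wild type scores. The means were 21.2 ± 3.40 and 57.2 ± 11.6 (SD, n = 4 each), a ratio of 0.371. The log2 difference was -1.38 (SE 0.66, limma adjusted p = 0.57), and the two-sided exact permutation p was 0.0286, the smallest that 4 against 4 scores can give, before any correction. The region was in the list because of the authors' p on the same libraries, so this permutation p is no independent support. Over the whole list, regions listed as higher included, 2.03% of regions were lower without overlap, against 7.69% (1 of 13) at members. The gene Micos13 also has an end within 2 kb of the region. At the far part of Rpl36, chr17:56613501-56613950 near Lonp1, the scores were 15, 108, 4 and 77 in vehicle heterozygotes, against 17, 60, 171 and 89 in vehicle wild type mice. These overlapped widely.

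Rpl5 had scores of 21, 179, 34 and 0 in vehicle heterozygotes, against 71, 87, 142 and 80 in vehicle wild type mice, at chr5:107900651-107901100 just inside the gene. Of the heterozygote scores, 3 lay below all wild type scores and 1 above them all. The log2 difference was -2.26 (SE 1.12, limma adjusted p = 0.57), and the means of 58.5 ± 81.6 and 95.0 ± 32.0 (SD, n = 4 each) differed by less than the spread of the heterozygotes. Rpl8, which encodes a protein next to the peptidyl transferase centre, had scores of 46, 133, 28 and 51 in vehicle heterozygotes, against 99, 112, 202 and 96 in vehicle wild type mice. Again 3 heterozygote scores were below the wild type range. For Rps16 the scores were 41, 73, 17 and 8 in vehicle heterozygotes, against 32, 76, 100 and 107 in vehicle wild type mice, with overlap of both groups. The exact permutation p of the 13 regions ran from 0.0286 to 0.429, and their adjusted limma p from 0.57 to 0.594.

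**Figure D3:**
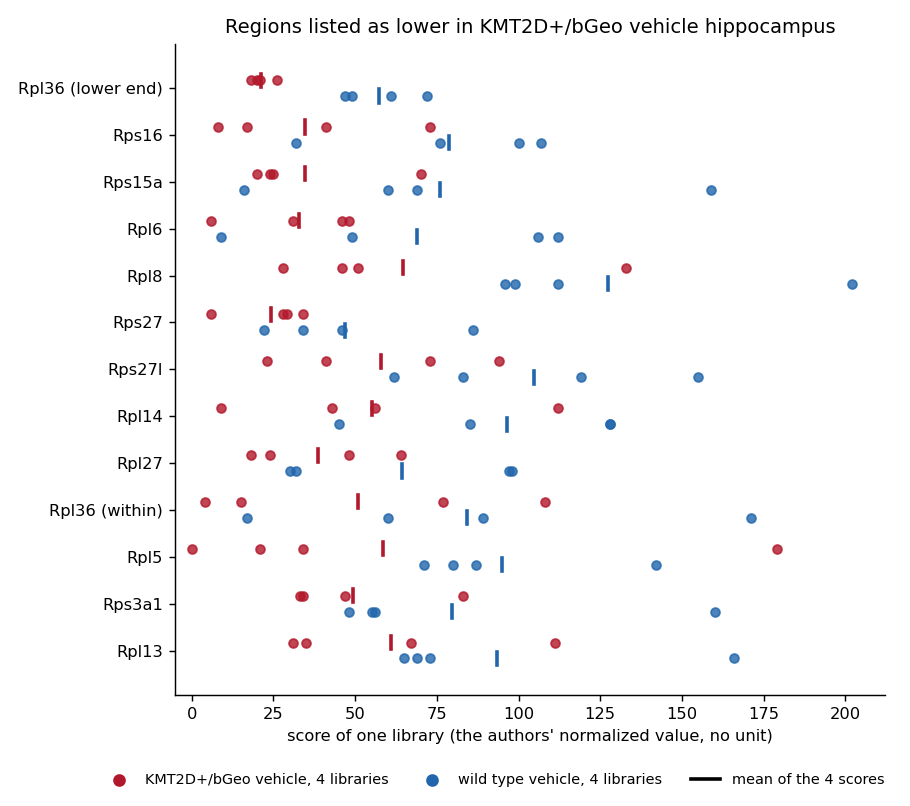
Scores of single libraries (horizontal axis, the authors' normalized value without unit) at the 13 listed regions of 12 ribosomal protein genes, red for 4 KMT2D+/bGeo vehicle libraries, drawn above blue for 4 wild type vehicle libraries; short bars are means. Every mean is lower in the heterozygotes, while the groups overlap at all regions except the first, over the lower end of Rpl36.

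In each group 1 score position stood above the others over regions at gene ends, in every list: position 3 for TAK-418 heterozygotes, TAK-418 wild type and vehicle wild type, and position 2 for vehicle heterozygotes. In the list of vehicle heterozygote against vehicle wild type the median at that position was 108 in heterozygotes, against 51 at the next position, and 156 in wild type, against 100. In the order of the samples, the library with the long peak list has the same number in each group: 3 in the first 3 groups named and 2 in vehicle heterozygotes. Whether the scores follow that order was not tested, as the lists name no library. At members the group's maximum was at this position in 10 of 13 regions for the heterozygotes and in 9 of 13 for wild type. With this position left out of both groups, an alternative chosen after seeing the data, the groups did not overlap at 4 of 13 member regions (30.8%: Rps3a1, Rpl5, Rpl8 and Rpl36), against 23.6% of the whole list, where another 1.94% were higher without overlap. Of the 2015 regions 1733 were listed as lower, so the list's percentages have a wider base than that of the members. Without the highest position the median log2 difference of the members was -1.03, against -0.99 with all scores. An unadjusted limma p under 0.05 was then found at 5 of 13 member regions, against 336 of 2015 in the list (16.7%). No region passed the adjusted p in this setting either.

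The second comparison asks whether TAK-418 moves the mark in heterozygotes. Between TAK-418 heterozygotes and vehicle heterozygotes 3 members were listed as higher (3.37%: Rpl5, Rpl36 and Rps21), against 2.22% of all genes, and 2 as lower (2.25%, among them Rps6), against 2.15%. At an authors' −log10 p of at least 2 no member was listed as lower, against 1.04% of all genes. Both shares were near the background, which among genes with a peak in any library was 3.45% for higher and 3.36% for lower. Rps21, a small-subunit gene that shares its region with Cables2, had scores of 101, 13, 170 and 89 in TAK-418 heterozygotes, against 39, 52, 24 and 19 in vehicle heterozygotes. Here 3 treated scores were above all vehicle scores and 1 below them all. The mean ratio was 2.78 and the log2 difference 1.09 (SE 1.00, limma adjusted p = 0.683). Rpl5 had scores of 46, 47, 222 and 51 in TAK-418 heterozygotes, against 26, 140, 36 and 2 in vehicle heterozygotes. The far region of Rpl36 had 86, 67, 194 and 48 in TAK-418 heterozygotes, against 15, 128, 4 and 90 in vehicle heterozygotes. In both genes the groups overlapped through 1 or 2 vehicle scores. Rps6 had scores of 14, 23, 155 and 45 in TAK-418 heterozygotes, against 79, 131, 79 and 48 in vehicle heterozygotes. No adjusted p of these 5 regions was below 0.683. Without the highest position of each group, 1 of 2 lower regions (Rps6) and 1 of 3 higher regions (Rpl5) did not overlap. Over all 1715 regions of the list, in both directions, 225 were lower without overlap (13.1%) and 144 higher (8.4%). Of the 1715 regions 540 were listed as lower, so these percentages have a wider base than the member counts. With all scores none of the 5 was free of overlap, against 0.35% of the list higher. No member region had an unadjusted limma p under 0.05 in the reduced setting, against 9.85% of the list.

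The third comparison asks the same of wild type mice. Between TAK-418 wild type and vehicle wild type mice 16 members were listed as lower (18%), against 4.45% of all genes, and 6 as higher (6.74%), against 5.94%. These counts depended on the authors' p. At an authors' −log10 p of at least 2, a setting chosen after seeing the data, 6 members were listed as lower (6.74%), against 2.0% of all genes, and 3 as higher (3.37%), against 2.92%. Among genes with a peak in any library the shares were 19.0% of members against 6.95% for lower, and 7.14% against 9.28% for higher. The list as a whole leaned the other way, with 36.4% of its regions lower. The members listed as lower were 9 large-subunit genes (Rpl5, Rpl6, Rpl8, Rpl13, Rpl14, Rpl15, Rpl26, Rpl36 and Rpl37a), 6 small-subunit genes (Rps3a1, Rps15, Rps15a, Rps16, Rps27 and Rpsa) and the stalk gene Rplp2. The 6 listed as higher were Rpl21, Rpl22, Rpl31, Rpl36al, Rplp0 and Rps10. Mitochondrial ribosomal protein genes were listed as lower in 5.13% and ribosome biogenesis genes in 12.3%. No region of this list passed the adjusted test, and no member's groups were free of overlap, against 0.144% of the list lower and 0.396% higher.

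Rpl36 had the lowest p of the members in this list too, both by limma (unadjusted p = 0.0799) and by exact permutation (p = 0.0857). Over its lower end, at chr17:56609951-56610300, the scores were 13, 8, 69 and 43 in TAK-418 wild type, against 67, 81, 69 and 103 in vehicle wild type mice. The highest treated score, 69, was just above the lowest vehicle score, 67. The log2 difference was -1.68 (SE 0.96, limma adjusted p = 0.77). Rpl5 had 50, 21, 277 and 31 in TAK-418 wild type, against 92, 116, 210 and 105 in vehicle wild type mice, so that 3 treated scores were below and 1 above the whole vehicle range. Rpl8 had 76, 42, 260 and 63 in TAK-418 wild type, against 126, 160, 293 and 140 in vehicle wild type mice. RPSA, the laminin receptor and small-subunit protein, is encoded by a gene whose region, shared with Slc25a38, had 22, 8, 126 and 58 in TAK-418 wild type, against 35, 61, 158 and 95 in vehicle wild type mice.

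Among the genes listed as higher, Rpl31 had scores of 98, 106, 330 and 118 in TAK-418 wild type, against 37, 110, 131 and 86 in vehicle wild type mice. Its log2 difference was 0.78 (SE 0.73, limma adjusted p = 0.77). Rps10 had 43, 50, 162 and 49 in TAK-418 wild type, against 26, 31, 75 and 37 in vehicle wild type mice. The regions counted for Rplp0 and Rpl36al lay outside these genes, near Gcn1 and Mgat2, and their exact permutation p was 0.771 and 0.743. In this list the highest position held the maximum of the treated group at all 23 member regions. Without it 6 of 17 lower regions did not overlap (35.3%: Rps3a1, Rpl5, Rplp2, Rpl13, Rpl8 and the lower end of Rpl36). Of the 6 higher ones 1 did not (16.7%: Rps10). Over all 2780 regions of the list, in both directions, 311 were lower without overlap (11.2%) and 273 higher (9.82%). Of the 2780 regions 1011 were listed as lower, so the list's percentages have a wider base than those of the members. In that setting 3 of the 23 member regions had an unadjusted limma p under 0.05, against 376 of 2780 in the list (13.5%). By this measure the share of the members was close to that of the list. The lowest adjusted limma p of a member was 0.323 in that setting.

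The last list sets TAK-418 heterozygotes against vehicle wild type mice, and so combines genotype and treatment. In it 20 members were listed as lower (22.5%), against 9.21% of all genes, and 1 as higher (1.12%: Rps21), against 0.758%. At an authors' −log10 p of at least 2 the lower members numbered 13 (14.6%), against 6.1% of all genes. Among genes with a peak in any library 23.8% of members were listed as lower, against 14.4%, and 1.19% as higher, against 1.16%. The lower set held 12 large-subunit genes (Rpl5, Rpl7, Rpl8, Rpl9, Rpl13, Rpl14, Rpl15, Rpl17, Rpl19, Rpl27, Rpl37a and Rpl38), 6 small-subunit genes (among them Rps3a1, Rps6, Rps15, Rps15a and Rps16), Rplp2 and Rps27l. Mitochondrial ribosomal protein genes were listed as lower in 12.8% and biogenesis genes in 17.8%. Scaling by position medians put 58.1% of all regions below 0 on the log2 scale, against 72.5% with scores as deposited. It moved the median of the member regions to -0.39, against -1.06, and gave Rps16 a value of 0.02. The median fold of the lower members was 0.638, against 0.650 for lower regions at gene ends.

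By limma, Rpl9 had the lowest p among the members here (unadjusted limma p = 0.0715), while the exact permutation p was lowest for Rplp2 (0.114). The Rpl9 region lies at chr5:65391051-65391450, covers the start of the gene and is shared with Lias. Its scores were 20, 11, 181 and 21 in TAK-418 heterozygotes, against 78, 114, 124 and 100 in vehicle wild type mice. The wild type scores lay close together, and 3 treated scores were far below them and 1 above. The log2 difference was -1.71 (SE 0.95, limma adjusted p = 0.572, exact permutation p = 0.143). Rpl37a, which encodes a zinc finger protein of the large subunit, had 18, 4, 173 and 2 in TAK-418 heterozygotes, against 40, 73, 248 and 40 in vehicle wild type mice, and the largest log2 difference of the list's members, -2.32 (SE 1.33, limma adjusted p = 0.572). Rpl7 had 120, 56, 342 and 81 in TAK-418 heterozygotes, against 126, 266, 427 and 168 in vehicle wild type mice. Rps21 had 106, 20, 187 and 91 in TAK-418 heterozygotes, against 59, 57, 89 and 40 in vehicle wild type mice, and its log2 difference of 0.40 became -0.02 without the third treated score. No member's groups were free of overlap, against 0.0735% of the list lower and 0.331% higher. Without the highest position 11 of the 21 member regions did not overlap (52.4%), all of them among the 20 lower ones. Over all 2722 regions of the list 894 were lower without overlap (32.8%) and 3.23% higher, while 1972 were listed as lower. In the same setting 9 of 21 member regions had an unadjusted limma p under 0.05 (42.9%), against 32.1% of the list, with none adjusted below 0.113.

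Across the 4 lists 15 members were in 1 list, 10 in 2, 7 in 3 and 1, Rpl5, in all 4. Rpl5 and Rpl36 were the members listed as lower in vehicle heterozygotes and as higher in heterozygotes after TAK-418. Both were also listed as lower after TAK-418 in wild type mice. The lists share the vehicle groups, so a low value in one group enters more than 1 of them. These genes were singled out for this pattern, their regions have other bounds in each list, and the difference between genotypes was not tested. On the log2 scale, within its own list, the TAK-418 difference of Rpl5 was 1.49 in heterozygotes and -1.15 in wild type mice, and that of the far region of Rpl36 was 1.48 in heterozygotes and -0.73 in wild type mice. The 6 genes listed as lower in every comparison with vehicle wild type mice besides Rpl5 were Rpl8, Rpl13, Rpl14, Rps3a1, Rps15a and Rps16, none of which was listed between TAK-418 and vehicle heterozygotes.

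**Figure D4:**
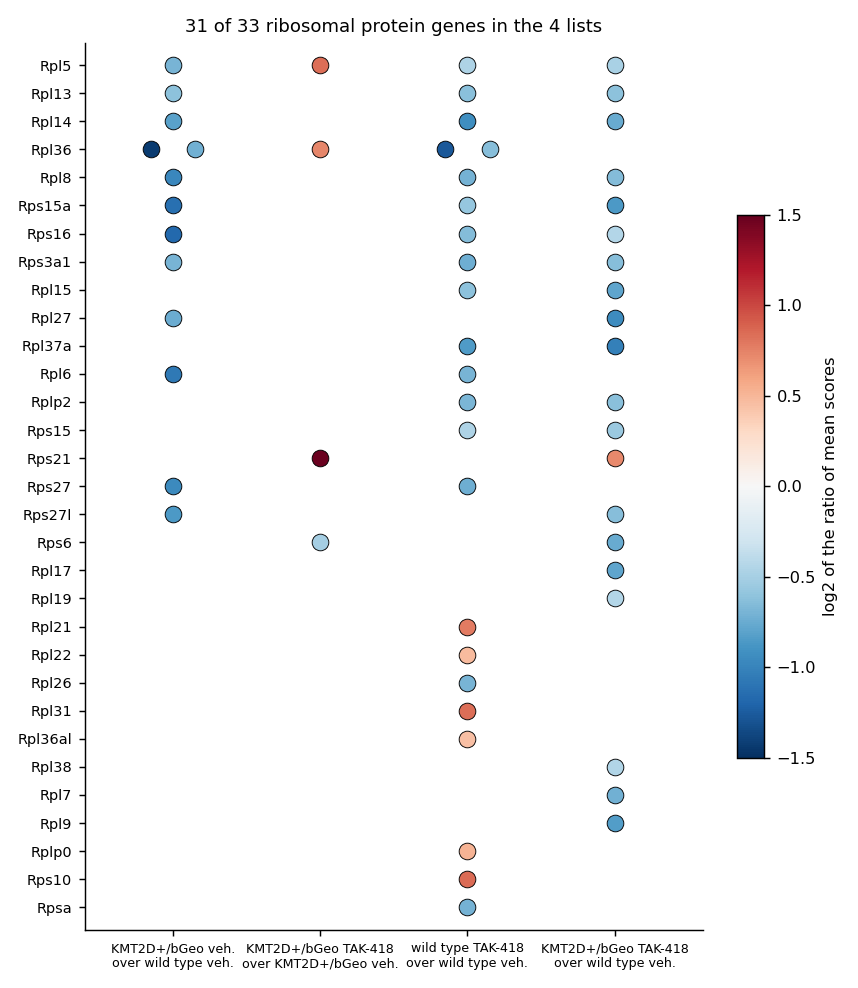
31 of the 33 ribosomal protein genes in any of the 4 H3K4me3 lists (rows), with the log2 ratio of mean scores by colour (red higher, blue lower in the first-named group) in each list (columns); an empty cell means not listed, and Rpl36 has 2 regions in 2 lists. Blue prevails in the 3 lists set against wild type vehicle, Rpl5 is in all 4, and Rps21 is higher in both of its lists.

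Most of the listed regions lay just inside the genes, while those of Rpl7, Rplp0 and Rpl36al lay outside. The same was not counted for listed regions of other genes. Of 62 regions, 49 belonged to a gene with a known start and strand, and in 45 of these the centre was downstream of the start. The start itself was covered by 10. The median distance from start to centre was 314.5 bp in the list of vehicle heterozygote against vehicle wild type, 311.5 bp in TAK-418 against vehicle wild type and 290.5 bp in TAK-418 heterozygote against vehicle wild type. The median region was 400 bp long in each list. In Rpl5 the region of the first list began downstream of the bases printed above, and the region of Rpl9 in the last list covered the start printed above. No region of the 4 H3K4me1 lists, which hold 538 to 781 regions and reach 47 to 59 genes, lay within 2 kb of a ribosomal protein gene.

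**Figure D5:**
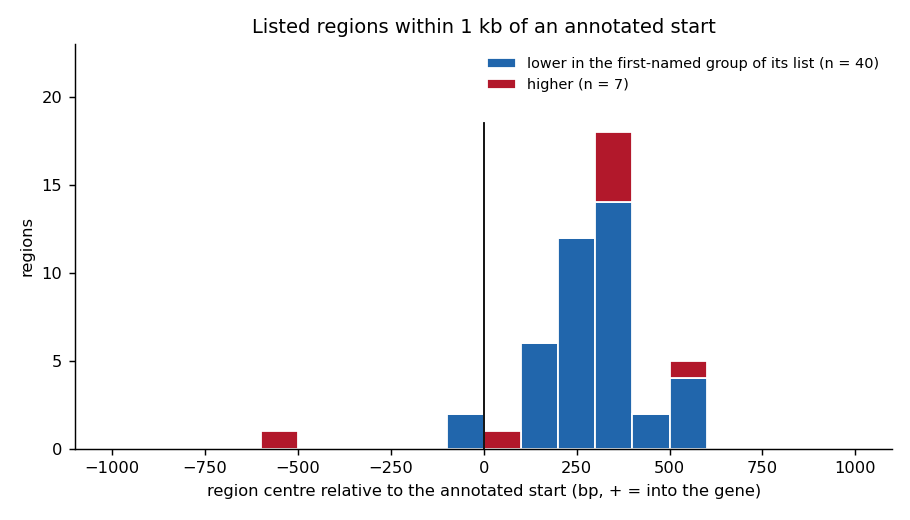
Distance of region centres from the annotated start (bp, horizontal axis, positive into the gene) for the 47 listed regions of ribosomal protein genes within 1 kb of a start, stacked by direction (blue lower, n = 40; red higher, n = 7); the line is the start. Of the 47 centres 44 lie between 0 and 600 bp inside the gene.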

How the data were processed

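H3K4me3 (16 libraries) and H3K4me1 (15 libraries) were read from 1 deposited peak list per library. The submitters' processing notes name mm10, MACS2, MACS and bedtools. No source used here gives the aligner, control library, peak threshold or versions. The deposited peak lists give the authors' fold enrichment, a ratio, and a −log10 p and a −log10 q per peak. The deposited differential lists give the authors' −log10 p, never below 1.3, and for each library a whole-number score, which was treated as normalized and not as counts. The tool behind these lists was not given. Read depth is unknown, so no counting interval was possible, and the number of peaks limits what a short list can show.

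Gene positions came from RefSeq for mm10. The highest peak within 2 kb of either end stood for a gene, and a start was known for genes with a RefSeq promoter. Scores were compared within a list by limma 3.58.1 in R 4.3.3 (log2(score + 1), empirical Bayes with a mean-variance trend, Benjamini-Hochberg over all rows of a list), after a test on simulated data, and by two-sided exact permutation of the 4 + 4 scores. The remaining steps used Python 3.11.15, in particular pandas 2.3.3 and numpy 2.4.6, with figures by matplotlib 3.10.9. Alternatives were another window, peak threshold, overlap, pseudocount, score minimum and scaling, and leaving out each score.

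The members and lists were chosen with earlier results of these data known. Genes were named when listed in any comparison, when among the 5 highest or 5 lowest in median percentile, when lacking a peak in a long list, or when marked in the most short lists. Sequences were shown for the listed member with the lowest limma p in each comparison and for up to 4 members of the highest and lowest. Rpl36 had the lowest limma p in 3 lists but no sequence in the table, so Rpl5 took its place. Results of a few genes that this rule names are not reported here, by name or in the figures; they remain in the counts.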

Additional observations from a re-analysis of the deposited data

Results flagged for a closer look

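In groups of 4 libraries, a value was picked out when its gap to the nearest other value, divided by the range of the group, was above Dixon's critical value, which chance reaches in about 1 in 20 groups. The number of ribosomal protein genes with an H3K4me3 peak was picked out in all 4 groups, for the long list of each: 83 genes in TAK-418 heterozygotes, 82 in vehicle heterozygotes, 82 in TAK-418 wild type and 79 in vehicle wild type mice.

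Of 124 groups of 4 scores at the member regions, 25 (20.2%) had 1 score set apart, and in all 25 it was the highest. In the list of vehicle heterozygotes against vehicle wild type it was 70 among the heterozygotes at Rps15a, and among wild type it was 160 at Rps3a1, 166 at Rpl13 and 202 at Rpl8. In the list of TAK-418 against vehicle heterozygotes it was 222 among the treated at Rpl5. In the list of TAK-418 against vehicle wild type it was, among the treated, 330 at Rpl31, 277 at Rpl5, 166 at Rpl6, 106 at Rplp2, 260 at Rpl8 and 162 at Rps10. Among vehicle wild type scores of that list it was 256 at Rpl37a, 144 at Rplp0 and 212 at Rpl13. In the list of TAK-418 heterozygotes against vehicle wild type it was, among the treated, 173 at Rpl37a, 181 at Rpl9, 187 at Rpl5, 190 at Rps16, 157 at Rps15a, 122 at Rplp2, 188 at Rps15 and 136 at Rpl15. Among vehicle wild type scores of that list it was 248 at Rpl37a, 238 at Rps3a1 and 204 at Rpl13. Regions in different lists overlap and share libraries, so these are not independent of each other.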

How the results depend on the processing

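Limits: depth is unknown, 1 long list per group carries nearly all peaks at members, scores name no library, and the lists hold only regions past the authors' threshold. An index-set covariate was not run, because the lists do not show which score is of which library. No paired analysis was possible because the scores and the columns that hold them name no library. The labels number no replicates either, and the replicate numbers used here only follow the order of the samples.

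With peaks of a −log10 q of at least 5, 31 members were marked in the long list of vehicle heterozygotes, 50 in that of vehicle wild type and 0 in any short list, and the median percentile became 61.45 in TAK-418 heterozygotes, 42.38 in vehicle heterozygotes and 51.31 in vehicle wild type. Counting only peaks away from any other gene end, 52 members were marked in TAK-418 heterozygotes, 52 in vehicle heterozygotes, 51 in TAK-418 wild type, 50 in vehicle wild type and 11 in any short list. The other 22 counts stayed within 1.5 times, and the other 5 percentiles stayed close. With annotated starts only, which 69 of the 89 genes had, 62 members were marked in TAK-418 heterozygotes and 62 in vehicle heterozygotes. In TAK-418 wild type they numbered 61, in vehicle wild type 58 and in any short list 12.

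Region settings for counts of listed members were chosen after seeing the data. At an authors' −log10 p of at least 2, TAK-418 against vehicle heterozygotes had 0 lower members, TAK-418 against vehicle wild type 6 lower and 3 higher, and TAK-418 heterozygotes against vehicle wild type 13 lower. With regions near no other gene, TAK-418 against vehicle heterozygotes had 1 lower and 1 higher, and TAK-418 heterozygotes against vehicle wild type 0 higher. A 5 kb window gave 2 higher there. The other 24 counts stayed within 1.5 times.

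For adjusted limma calls, TAK-418 heterozygotes against vehicle wild type had 8 regions without the mean-variance trend (an added setting) and 0 to 3 when 1 score was left out. No other list and setting moved from 0. No member was called in any setting. Of 62 member regions, 59 kept their sign when any 1 score was left out. The exceptions were Rplp0 (-0.21 to 1.00 on the log2 scale) and Rpl36al (-0.31 to 0.60) in TAK-418 against vehicle wild type, and Rps21 (-0.018 to 1.04) in TAK-418 heterozygotes against vehicle wild type. All 62 regions were listed for a group difference, which favours a kept sign. Kept signs were not counted over the other listed regions. Scaling by position medians reversed Rps3a1 (0.058) in vehicle heterozygotes against vehicle wild type and Rps16 (0.024) in TAK-418 heterozygotes against vehicle wild type. The cause was not tested.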
